A study of Homo sapiens with 6 samples.

Results

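The CREB and ATF proteins are transcription factors that bind DNA as dimers through a basic leucine zipper (bZIP), many of them at the cAMP response element (CRE). The genes described here are 10 members of that family and of its coactivators: CREB5, ATF2, ATF7, CREB1, ATF1, CREM, CREB3, CREBBP, EP300 and CRTC2. They were picked by gene symbol among the 61806 genes listed, and the family was chosen because CREB5 and CREBBP were lower in GFP-812 libraries. The difference between the groups is therefore a description for all 10 members. Polyadenylated RNA was sequenced from cells of 293T, an established line of human embryonic kidney origin labelled as epithelial, transfected with a GFP-812 plasmid (3 libraries) or a GFP plasmid (3 libraries) by the same lipid reagent. GFP is green fluorescent protein, and the series title concerns truncated NEK1. The meaning of the suffix of GFP-812, the promoter of either plasmid and the share of cells that took it up are not given in the labels. Separate cultures are not stated either, so the spread behind each p-value may be technical.

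In the best known route, cAMP activates protein kinase A, which phosphorylates CREB1, CREM and ATF1. The phosphorylated factors then recruit the histone acetyltransferases CREBBP and EP300, and the CRTC proteins bind the same factors once they are dephosphorylated. ATF2, ATF7 and CREB5 form a separate subfamily that can pair with JUN proteins, and ATF2 and ATF7 are known targets of stress-activated kinases. CREB3 is made as a membrane protein of the endoplasmic reticulum and is released by cleavage. 293T cells carry the adenoviral protein E1A, which is known to bind EP300 and CREBBP.

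Promoter windows of 8 of the 10 members, 21 windows in all, were read from RefSeq (GRCh38.p14), each running from 250 bases before to 50 bases after an annotated start. ATF2 and CRTC2 had no entry. The sequences shown are those of the 3 members that were lower in GFP-812 libraries, with, for CREB5, the window that holds an AP-1 motif and, for CREBBP, the one that holds half-sites, and beside them the CREM window that holds a full CRE. Capitals mark TGACGTCA (the CRE), TGACG (its half-site) and TGANTCA (the AP-1 motif), each searched on both strands, and every full CRE also contains the half-site.
CREB5: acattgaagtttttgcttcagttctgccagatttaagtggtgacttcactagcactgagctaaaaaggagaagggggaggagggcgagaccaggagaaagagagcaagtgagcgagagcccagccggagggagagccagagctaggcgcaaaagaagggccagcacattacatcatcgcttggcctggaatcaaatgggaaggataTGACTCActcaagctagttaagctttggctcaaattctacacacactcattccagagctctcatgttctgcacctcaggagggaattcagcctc
CREBBP: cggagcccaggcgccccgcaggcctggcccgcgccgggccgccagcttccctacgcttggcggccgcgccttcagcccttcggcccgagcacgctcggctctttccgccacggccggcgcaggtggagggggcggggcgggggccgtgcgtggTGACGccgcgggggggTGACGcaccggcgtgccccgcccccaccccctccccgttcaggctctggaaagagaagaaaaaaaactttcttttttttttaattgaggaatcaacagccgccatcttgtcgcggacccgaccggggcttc
EP300: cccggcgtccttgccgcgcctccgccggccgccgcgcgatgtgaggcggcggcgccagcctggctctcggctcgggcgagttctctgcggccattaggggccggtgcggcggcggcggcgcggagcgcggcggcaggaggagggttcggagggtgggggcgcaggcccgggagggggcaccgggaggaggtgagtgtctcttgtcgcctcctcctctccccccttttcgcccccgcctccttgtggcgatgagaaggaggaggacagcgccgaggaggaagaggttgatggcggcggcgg
CREM: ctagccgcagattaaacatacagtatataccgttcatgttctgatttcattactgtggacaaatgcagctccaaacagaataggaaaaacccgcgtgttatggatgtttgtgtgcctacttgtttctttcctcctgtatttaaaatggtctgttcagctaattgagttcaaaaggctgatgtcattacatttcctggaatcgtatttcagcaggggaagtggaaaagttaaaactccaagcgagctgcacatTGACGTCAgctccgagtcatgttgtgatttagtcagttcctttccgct
The windows lie on the plus strand at chr7:28685883-28686182 for CREB5, on the minus strand at chr16:3880664-3880963 for CREBBP, and on the plus strand at chr22:41092342-41092641 for EP300 and chr10:35195600-35195899 for CREM. The full CRE occurred in 2 of the 21 windows, which overlap at an internal start of CREM, and in 1.85% of 35116 windows over all genes. The half-site occurred in 6 of the 21, against 24.6% of all windows, and the CREBBP window shown held it at 2 places. The AP-1 motif occurred in 1 of the 21, the CREB5 window above, against 7.71% of all windows. The other CREB5 windows, the other CREBBP window (minus strand, chr16:3880071-3880370) and the EP300 window held none of these letters. GC content was 41.7%, 37.3% and 50% in the CREB5 windows, 70.3% in the CREBBP window shown and 82% in the other, and 75.3% in the EP300 window. Counts per gene do not tell which start a transcript used.

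NEK1, the gene of the series title, stood at 562.7, 518.3 and 493.7 FPKM in GFP-812 libraries, against 3.82, 3.99 and 3.91 FPKM in GFP libraries (log2 fold change 7.08, SE 0.0468, edgeR adjusted p = 4.5e-70). FPKM is a count scaled by the exonic length of the gene and by the library's total. Levels of different genes can be compared only as far as that length matches the transcripts present, which was not tested. Library totals were 14255148 to 17613814 counts in GFP-812 libraries and 16061389 to 16144531 counts in GFP libraries. Among 5 epithelial markers, 2 had a mean of at least 1 FPKM, the keratins KRT18 (15.4 FPKM in GFP-812 and 14.7 FPKM in GFP libraries) and KRT8 (10.5 FPKM in GFP-812 and 9.53 FPKM in GFP libraries). Of 6 renal lineage markers LHX1 alone reached that level, and UMOD, a marker of the kidney tubule, was at 0 counts in all 6 libraries. Of 8 markers of blood, endothelium, fibroblasts and neurons, COL1A1 and SYT1 reached 1 FPKM and HBB was at 0, with summed levels of 3.03 to 3.59 FPKM in GFP-812 and 3.18 to 3.96 FPKM in GFP libraries. Summed levels of the epithelial list were 26.57 to 29.35 FPKM in GFP-812 and 25.81 to 26.23 FPKM in GFP libraries, and their part in the members' values was not tested.

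In GFP-812 cells 3 members were lower by the edgeR call over all genes (adjusted p under 0.05): CREB5, EP300 and CREBBP. No member was higher by edgeR, DESeq2 or limma, and at an unadjusted p under 0.05 edgeR had 4 lower and 0 higher. At that unadjusted cut edgeR had 2717 of 16834 genes tested, in either direction. Over all genes, 3.84% of 16834 genes tested were called, 2.67% lower and 1.18% higher, and since the family was chosen on this contrast nothing is read from the members' count beside it. All 10 members passed the filter on low counts. Their fitted log2 fold changes were below 0 in 9 of 10, with a median of -0.09, against 48.2% of all genes tested below 0 and a median of 0.01. The libraries of the groups did not overlap for the 3 called members, GFP-812 below GFP in each, while 12.1% of all genes tested had every GFP-812 library below every GFP library and 7.93% had every one above. In RNA from whole cultures, fewer cells that express a gene and less RNA per cell cannot be told apart.

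**Figure D1:**
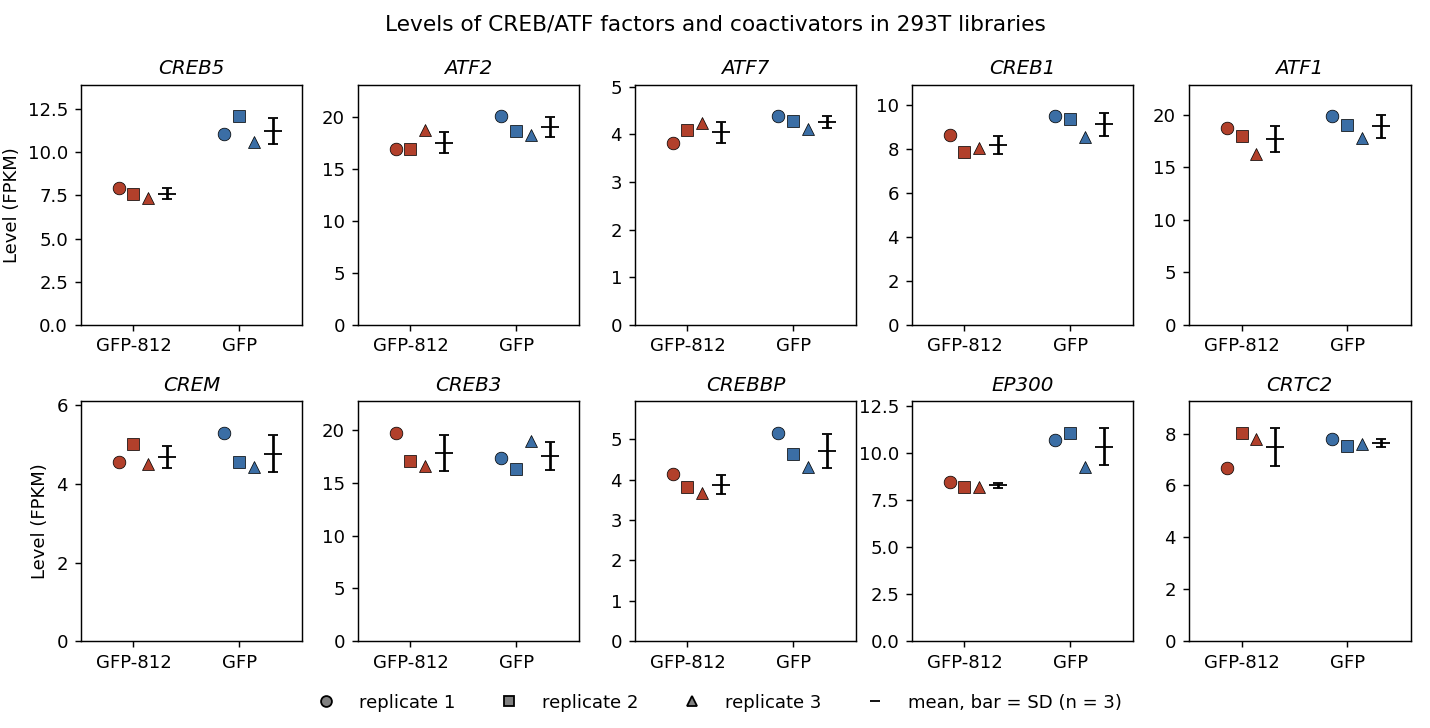
Level in FPKM of the 10 members in each library (symbols by replicate number), with the GFP-812 group on the left, the GFP group on the right, and the mean with its SD (n = 3) beside each group. For CREB5, CREBBP and EP300 every GFP-812 point lies under every GFP point, and for the other 7 members the groups overlap.

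In the subfamily of ATF2, CREB5 (ENSG00000146592, hg38 chromosome 7, 28299321 to 28825894, plus strand), a bZIP factor that can pair with JUN, stood at 7.92, 7.58 and 7.33 FPKM in GFP-812 libraries, against 11.07, 12.1 and 10.62 FPKM in GFP libraries. The highest GFP-812 library was below the lowest GFP library. The means were 7.61 ± 0.296 FPKM in GFP-812 and 11.3 ± 0.759 FPKM in GFP libraries (SD, n = 3 each). The fitted level was 31.9% lower in GFP-812 libraries (log2 fold change -0.55, SE 0.0513). The value ran from -0.60 to -0.50 when each library was left out in turn, and CREB5 was called in all 6 of those fits.

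ATF2 (chromosome 2, 175072250 to 175168382), which pairs with JUN and itself, stood at 16.94, 16.96 and 18.72 FPKM in GFP-812 libraries, against 20.09, 18.67 and 18.25 FPKM in GFP libraries. GFP-812 replicate 3 lay among the GFP libraries, and the log2 fold change of -0.10 (SE 0.0517) was not called. ATF7 (chromosome 12, 53507856 to 53626410), the close relative of ATF2, stood at 3.81, 4.08 and 4.24 FPKM in GFP-812 libraries and at 4.38, 4.27 and 4.12 FPKM in GFP libraries. Its groups overlapped, and its log2 fold change of -0.06 (SE 0.0755) was not called.

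Of the summed FPKM of these 3 genes, CREB5 made up 27.6%, 26.5% and 24.2% in GFP-812 libraries, against 31.1%, 34.5% and 32.2% in GFP libraries. ATF2 made up 60.1% ± 1.52 in GFP-812 and 55% ± 1.64 in GFP libraries (SD, n = 3 each), and ATF7 made up 13.9% ± 0.502 in GFP-812 and 12.3% ± 0.15 in GFP libraries (SD, n = 3 each). The shares of a library add up to the whole, so a lower CREB5 share raises the others. The levels of ATF2 and ATF7 themselves had fitted log2 fold changes of -0.10 and -0.06. The sum itself was 29.2 ± 0.95 FPKM in GFP-812 and 34.5 ± 1.35 FPKM in GFP libraries (SD, n = 3 each). ATF2 was the most abundant of the 3 in every library, CREB5 came next and ATF7 was lowest.

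**Figure D2:**
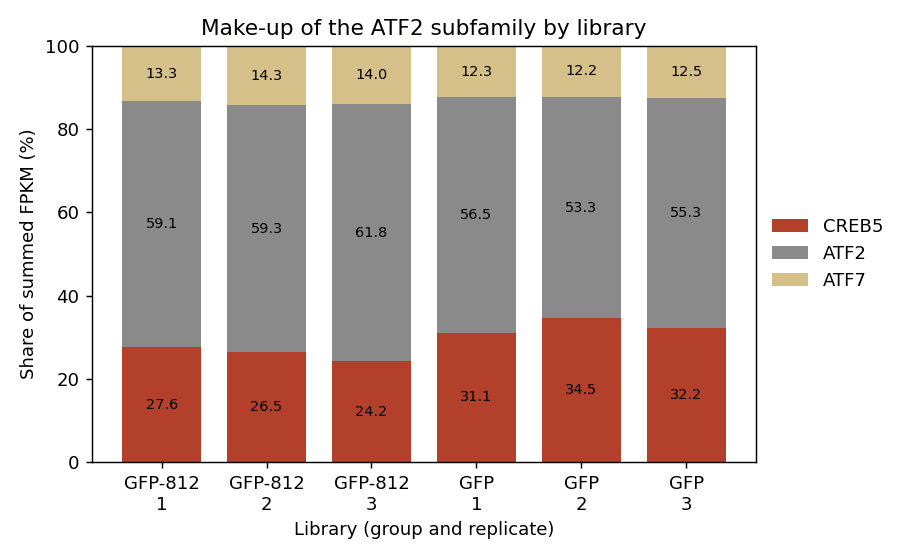
Share of the summed FPKM of CREB5, ATF2 and ATF7 held by each gene (stacked bars, percent) in each of the 6 libraries, GFP-812 libraries on the left. The CREB5 share was 24.2% to 27.6% in GFP-812 libraries and 31.1% to 34.5% in GFP libraries. The shares of a library add up to the whole, so higher shares of ATF2 and ATF7 are not higher levels.

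In the subfamily that answers to cAMP, CREB1 (chromosome 2, 207529737 to 207605988), the factor that names the family, stood at 8.66, 7.87 and 8.06 FPKM in GFP-812 libraries, against 9.51, 9.36 and 8.54 FPKM in GFP libraries. GFP replicate 3 fell below GFP-812 replicate 1, and the log2 fold change of -0.15 (SE 0.0518) was not called. Without GFP replicate 3, CREB1 was called, at -0.19. ATF1 (chromosome 12, 50763710 to 50821162), a close relative of CREB1, stood at 18.74, 17.96 and 16.29 FPKM in GFP-812 libraries and at 19.87, 19.06 and 17.75 FPKM in GFP libraries. Its groups overlapped (log2 fold change -0.09, SE 0.0654, not called). CREM (chromosome 10, 35126791 to 35212958), whose internal start gives a short repressor form, stood at 4.55, 5.01 and 4.51 FPKM in GFP-812 libraries and at 5.3, 4.55 and 4.44 FPKM in GFP libraries. Its groups lay over each other (log2 fold change -0.01, SE 0.0855, not called), and without GFP replicate 1 the value was 0.08. Within the subfamily ATF1 held 57.8% ± 1.18 of the summed FPKM in GFP-812 and 57.6% ± 0.281 in GFP libraries, CREB1 26.9% ± 1.22 in GFP-812 and 27.9% ± 0.49 in GFP libraries, and CREM 15.4% ± 1.03 in GFP-812 and 14.5% ± 0.742 in GFP libraries (SD, n = 3 each).

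CREB3 (chromosome 9, 35732598 to 35736999), the membrane-bound factor, was the only member with a fitted value above 0. It stood at 19.74, 17.07 and 16.56 FPKM in GFP-812 libraries and at 17.35, 16.27 and 18.93 FPKM in GFP libraries. The groups overlapped across nearly their whole range, and the log2 fold change of 0.03 (SE 0.0837) was not called. It was below 0 without GFP-812 replicate 1 (-0.05).

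Both paralogous acetyltransferases were lower in GFP-812 libraries, and the third coactivator was not called. EP300 (ENSG00000100393, chromosome 22, 41092592 to 41180077, plus strand), which acetylates histones at enhancers and promoters, stood at 8.46, 8.19 and 8.23 FPKM in GFP-812 libraries, against 10.74, 11.1 and 9.26 FPKM in GFP libraries. All GFP-812 libraries lay below GFP replicate 3, the lowest of the GFP group. The means were 8.29 ± 0.146 FPKM in GFP-812 and 10.4 ± 0.975 FPKM in GFP libraries (SD, n = 3 each), with a log2 fold change of -0.31 (SE 0.0532). EP300 was called in all 6 fits that left out a library, at -0.39 to -0.26.

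CREBBP (ENSG00000005339, chromosome 16, 3725054 to 3880713, minus strand), the paralog of EP300 and the first known partner of phosphorylated CREB1, stood at 4.14, 3.81 and 3.67 FPKM in GFP-812 libraries, against 5.16, 4.63 and 4.32 FPKM in GFP libraries. The highest GFP-812 library and the lowest GFP library were close to each other without overlap. The means were 3.87 ± 0.241 FPKM in GFP-812 and 4.7 ± 0.425 FPKM in GFP libraries (SD, n = 3 each; log2 fold change -0.27, SE 0.0621). The call was lost without GFP-812 replicate 2 (-0.26), GFP-812 replicate 3 (-0.23) or GFP replicate 1 (-0.19). CRTC2 (chromosome 1, 153947669 to 153958615), the coactivator that moves to the nucleus when dephosphorylated, stood at 6.66, 8.03 and 7.79 FPKM in GFP-812 libraries and at 7.79, 7.51 and 7.61 FPKM in GFP libraries. The GFP-812 libraries lay on both sides of the GFP group (log2 fold change -0.01, SE 0.0839, not called), and the value was 0.06 without GFP-812 replicate 1. Of the summed FPKM of the 3 coactivators, EP300 held 42.2% ± 1.56 in GFP-812 and 45.6% ± 2.04 in GFP libraries, CREBBP 19.7% ± 1.55 in GFP-812 and 20.7% ± 0.967 in GFP libraries, and CRTC2 38.1% ± 3.04 in GFP-812 and 33.7% ± 1.94 in GFP libraries (SD, n = 3 each). The CRTC2 share was 34.6%, 40.1% and 39.6% in GFP-812 libraries, against 32.9%, 32.3% and 35.9% in GFP libraries, so the groups overlapped. The shares of a library add up to the whole, so a higher mean CRTC2 share is not a higher CRTC2 level.

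**Figure D3:**
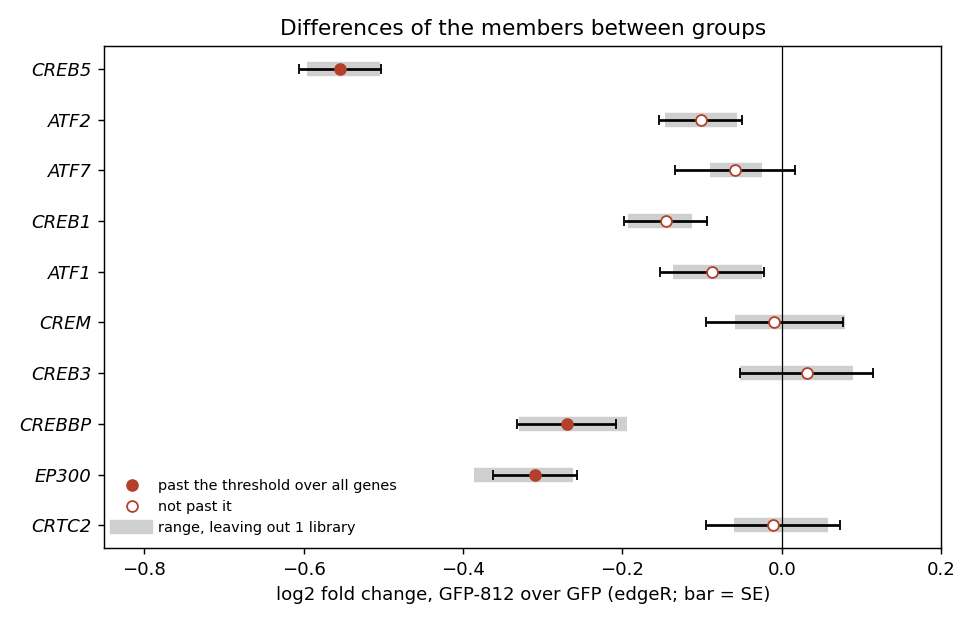
Fitted log2 fold change (GFP-812 over GFP, edgeR) of each member with its SE, filled where called over all genes, and the range of the value when each library was left out in turn (grey). CREB5 lies farthest from 0 at -0.55, followed by EP300 at -0.31 and CREBBP at -0.27, and the grey ranges of CREM, CREB3 and CRTC2 cross 0.

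In order of FPKM, with the limit of that scale given above, the members formed similar tiers in both groups. In GFP-812 libraries CREB3, ATF1 and ATF2 led at 17.5 to 17.8 FPKM with overlapping ranges, EP300, CREB1, CREB5 and CRTC2 followed at 7.49 to 8.29 FPKM, each overlapping its neighbour, and then CREM at 4.69 FPKM stood above ATF7 and CREBBP, which overlapped. In GFP libraries ATF2, ATF1 and CREB3 led at 17.5 to 19 FPKM with overlapping ranges. There CREB5, at 11.3 FPKM, was the fourth by level and overlapped EP300, which overlapped CREB1, while CRTC2 at 7.64 FPKM overlapped neither neighbour, and CREM, CREBBP and ATF7 came last with overlapping ranges. In GFP-812 libraries CREB5 stood sixth, under EP300 and CREB1.

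The libraries of the GFP group were not alike for these genes. On scaled counts GFP replicate 3 was the lowest GFP library for 8 of the 10 members, against 34.8% of all genes tested, and GFP replicate 1 was the lowest for 0, against 30.9%. Among GFP-812 libraries, replicate 3 was the lowest for 6 members, against 32.9% of all genes tested. The members together took 0.0624%, 0.0605% and 0.0605% of all counts in GFP-812 libraries, against 0.0744%, 0.0731% and 0.0674% in GFP libraries. Members had 342 to 2274 counts per library, at which counting error alone is 5.41% to 2.1% of a value. The differences of ATF7, CREM, CREB3 and CRTC2 were smaller than their SEs.

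The called members are all among those with the longest transcribed exons. CREB1, CREB5, CREBBP and EP300 have at least 11000 exonic bases in the table (12132, 11681, 15479 and 11692), against a median of 4862 over all genes tested. In that size class 5.91% of 1930 genes tested fell and 1.24% rose, with a median log2 fold change of -0.02. Of genes under 2000 exonic bases, the class of CREB3, 0.236% of 2540 fell and 1.26% rose, with a median of 0.06. With exonic size and GC content removed from each library by a spline, CREB5 was at -0.51 (SE 0.047), EP300 at -0.29 (SE 0.0491) and CREBBP at -0.26 (SE 0.0596), and each was still called. CREB1, at -0.10 (SE 0.0482), was not. As CREB5 and CREBBP were chosen for being lower, these values are a description. In genomic span the 3 differ: CREB5 covers 527 kb and CREBBP 156 kb, where 3.36% of genes fell, and EP300 covers 87.5 kb, where 4.63% fell.

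**Figure D4:**
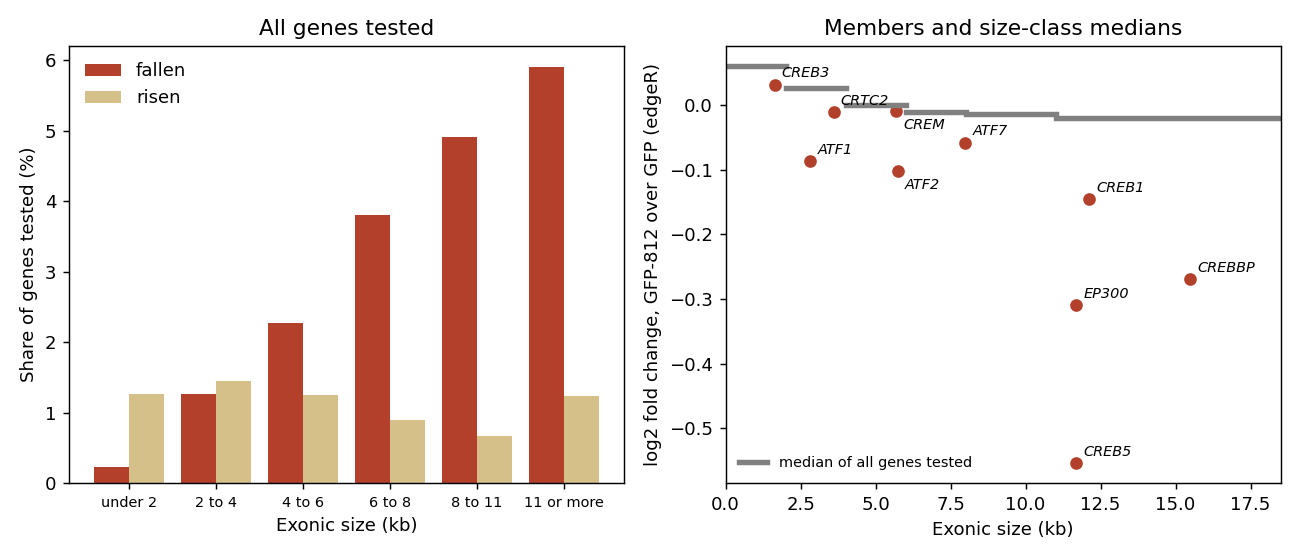
Left, share of all genes tested that fell or rose in GFP-812 libraries (percent) by class of exonic size (kb), and right, log2 fold change (GFP-812 over GFP) of the members against exonic size, with the median of all genes tested in each class (grey). The fallen share was 0.236% in the smallest class and 5.91% in the largest, which holds CREB1, CREB5, EP300 and CREBBP. All of these lie under their class median of -0.02, CREB1 at -0.15 and not called. The family was chosen because CREB5 and CREBBP were lower, so their place under the median is a description.

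Other rows of the table overlap some members, and whether the counting used strand is not given in the sources used here. The rows that overlap CREB5 and CREBBP had at most 1 and 2 counts in any library, and the antisense RNA EP300-AS1 had 7 to 27 counts, 0.784% of the counts of EP300. METTL21A, on the opposite strand, overlaps CREB1 over 25358 bases and had 260 to 367 counts. CUL2 and GBA2, on the opposite strands at the ends of CREM and CREB3, overlap them over 216 and 134 bases and had more counts than they did. The readthrough row ATF7-NPFF shares 118124 bases of ATF7 on the same strand and had 0 counts in all 6 libraries. EP300-AS1 overlaps EP300 over 5487 bases. A low count of an overlapping row does not show how many shared reads were left uncounted. Values of the members that such rows overlap, EP300 among them, are uncertain to the extent that shared reads were split or left uncounted. The low place of ATF7, in its subfamily and among the members, carries this limit.

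Genes whose profiles over the 6 libraries came closest to that of CREB5, by the root-mean-square difference of centred log2 CPM among 6874 genes with a mean of at least 5 FPKM, were LTN1 (0.0895), ZMYM5 (0.092), PPM1D (0.0932) and ZNF654 (0.0963), where the median gene was at 0.286. LTN1 stood at 7.29, 7.72 and 7.79 FPKM in GFP-812 libraries, against 10.7, 10.63 and 10.26 FPKM in GFP libraries. For CREBBP the closest were ZC3H7A (0.0311), C1orf112 (0.0409), TRAPPC8 (0.041) and FASTKD5 (0.041), where the median was 0.168. ZC3H7A stood at 18.99, 17.93 and 17.64 FPKM in GFP-812 libraries, against 23.17, 21.37 and 20.32 FPKM in GFP libraries. The genes were picked as the closest over these same 6 libraries, so their likeness to the member and their gap to the median follow from the choice. EP300 was not among the closest to either.

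Among 16 other CREB/ATF bZIP genes, 14 were tested, 2 fell, 0 rose and 12 did not pass in edgeR (at an unadjusted p under 0.05, 3 lower and 1 higher). This list and those below were chosen with earlier results of these data known, so their counts, medians and p-values are a description. Over all genes tested 2.67% fell and 1.18% rose, and the median was 0.01. The unadjusted counts stand beside 2717 of 16834 genes tested in either direction. Nothing is read from the counts of any list. ATF3, a stress-induced factor that can repress CRE sites, stood at 18.23, 18.78 and 18.58 FPKM in GFP-812 libraries, against 21, 22.31 and 23.49 FPKM in GFP libraries, with no overlap (log2 fold change -0.25, SE 0.0541, edgeR adjusted p = 0.00217). CREBRF, a regulator of CREB3, stood at 2.24, 2.52 and 2.16 FPKM in GFP-812 libraries, against 2.91, 3.34 and 2.88 FPKM in GFP libraries, again with no overlap (-0.38, SE 0.079, edgeR adjusted p = 0.00129). Both kept their calls in all 6 fits that left out a library. The list median was 0.03. ATF4, the factor of the integrated stress response, was the most abundant gene of the list, at 193.8 ± 1.32 FPKM in GFP-812 and 187.1 ± 5.99 FPKM in GFP libraries (SD, n = 3 each), and was not called.

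None of the 7 JUN and FOS genes, the AP-1 partners of the ATF2 subfamily, passed in edgeR or DESeq2. A gene without an adjusted p in DESeq2 would also count as not passed. At an unadjusted p under 0.05 edgeR had 1 lower and 0 higher, and the list median was -0.05. Limma also called 0, but it left out 1 of the 7, with a mean under 1 FPKM. In the whole table limma called only 3 genes higher and 1 lower. JUN stood at 65.9 ± 1.72 FPKM in GFP-812 and 70.7 ± 2.43 FPKM in GFP libraries (SD, n = 3 each; log2 fold change -0.09, SE 0.0408, edgeR adjusted p = 0.265). FOS stood at 3.49 ± 0.411 FPKM in GFP-812 and 3.25 ± 0.675 FPKM in GFP libraries (SD, n = 3 each).

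Of 19 other coactivators and histone acetyltransferases, 18 were tested, 1 rose, 2 fell and 15 did not pass. At an unadjusted p under 0.05 edgeR had 1 higher and 4 lower. The list median was -0.07 and 14 fitted values were below 0. Over all genes tested the median was 0.01 and 48.2% were below 0, and nothing is read from the difference. CITED2, which binds CREBBP and EP300 and limits the access of other factors to them, stood at 40.26, 42.9 and 43.42 FPKM in GFP-812 libraries, against 29.97, 34.82 and 37.8 FPKM in GFP libraries. Its lowest GFP-812 library was above its highest GFP library (log2 fold change 0.32, SE 0.0565, edgeR adjusted p = 0.000177), and it kept its call without each library in turn. The acetyltransferase KAT6A was at -0.18 (SE 0.0513, edgeR adjusted p = 0.0312) and the nuclear receptor coactivator NCOA1 at -0.21 (SE 0.0644, edgeR adjusted p = 0.0451). KAT6A was no longer called when replicate 1 or 2 of either group was left out (edgeR adjusted p 0.121 to 0.208), and NCOA1 lost it without any library other than GFP replicate 3 (edgeR adjusted p 0.0667 to 0.201).

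Upstream, none of 26 genes tested of the 30 for cAMP and protein kinase A passed in edgeR or DESeq2. Here too a gene without an adjusted p in DESeq2 would count as not passed. At an unadjusted p under 0.05 edgeR had 3 higher and 1 lower, and the list median was 0.01. Limma also called 0, but it left out 6 of the 26, with means under 1 FPKM. PKIA, an inhibitor of protein kinase A named here after its values were seen, came closest, at 28.8 ± 1.79 FPKM in GFP-812 and 26 ± 0.586 FPKM in GFP libraries (SD, n = 3 each; log2 fold change 0.16, SE 0.0504, edgeR adjusted p = 0.0544). It passed without GFP-812 replicate 1 (edgeR adjusted p = 0.0291), and ADCY10, an adenylyl cyclase, passed downward without GFP replicate 1 (edgeR adjusted p = 0.0449). Of 27 kinases and phosphatases that act on CREB, ATF or CRTC proteins, 1 fell, 0 rose and 26 did not pass (at an unadjusted p under 0.05 in edgeR, 4 lower and 2 higher), with a list median of -0.01. That gene was SIK3, a kinase that holds CRTC proteins in the cytoplasm, at 3.65, 3.44 and 3.64 FPKM in GFP-812 libraries, against 4.06, 4.3 and 4.51 FPKM in GFP libraries (log2 fold change -0.25, SE 0.068, edgeR adjusted p = 0.023). It was no longer called when replicate 2 or 3 of either group was left out (edgeR adjusted p 0.0558 to 0.185), and 2 genes of the list fell without GFP replicate 3, GSK3B and PPP3R1.

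Downstream, 24 of 32 genes known for a cAMP response through a CRE were tested. Of these CITED2 rose, 1 fell and 22 did not pass (at an unadjusted p under 0.05 in edgeR, 4 higher and 1 lower). The median was 0.16 and 17 fitted values were above 0, but 10 of the 24 had a mean under 1 FPKM. EGR1, an immediate early transcription factor, stood at 2.3, 3.1 and 3.04 FPKM in GFP-812 libraries, against 3.71, 4.18 and 3.89 FPKM in GFP libraries (log2 fold change -0.46, SE 0.131, edgeR adjusted p = 0.031). Its groups did not overlap, and its call was lost without any library other than GFP replicate 3 (edgeR adjusted p 0.0572 to 0.199). Genes of the list with more than 3 FPKM in both groups that did not pass had fitted log2 fold changes of 0.18 (RGS2), 0.18 (GEM), 0.17 (JUNB), 0.14 (CEBPB), 0.12 (FOS), -0.04 (CCNA2), -0.04 (DUSP1) and -0.06 (PER1). RGS2, a regulator of G protein signalling, stood at 14.7 ± 0.864 FPKM in GFP-812 and 13.1 ± 0.819 FPKM in GFP libraries, and DUSP1, a phosphatase of MAP kinases, at 17.79 ± 0.99 FPKM in GFP-812 and 18.53 ± 0.611 FPKM in GFP libraries (SD, n = 3 each). SIK1, at 0.217 FPKM in GFP-812 and 0.133 FPKM in GFP libraries, has a near-identical copy and its value is uncertain.

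**Figure D5:**
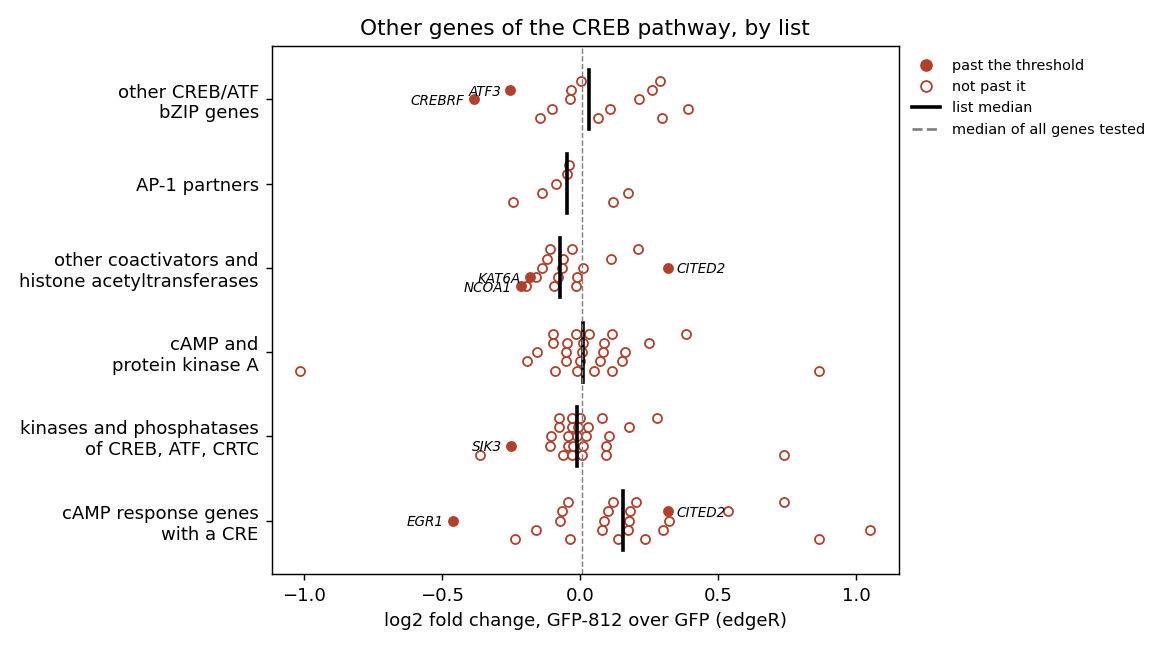
Fitted log2 fold change (GFP-812 over GFP, edgeR) of each tested gene of 6 lists, filled where past the threshold over all genes, with the list median (black bar) and the median of all genes tested (dashed line, 0.01). Past the threshold lie CREBRF, ATF3, KAT6A, NCOA1, SIK3 and EGR1 below 0 and CITED2, which is on 2 lists, above 0.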

How the data were processed

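The members and gene lists were chosen with earlier results of these data known. Per the labels' protocols, poly(A) RNA was sequenced, and the build was hg38 per the submitters' processing notes, which list HTSeq 0.6.1, HISAT2 2.2.1, cutadapt 1.9.1 and FastQC 0.10.1. Strand setting and annotation release: not given in the sources used here. The authors deposited raw counts per gene for each library. The authors also deposited FPKM, and dividing each count by the exonic size and the library's total returned it for 100% of values within 0.0051. Levels are FPKM as deposited.

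Counts were tested with edgeR 4.0.16 in R 4.3.3 (filterByExpr, TMM scaling, quasi-likelihood test, group as the single term, all 6 libraries), 2-sided, with Benjamini-Hochberg adjustment over 16834 genes and a threshold of 0.05. SEs come from the F statistic. The fit was first tested on simulated data. Alternatives were DESeq2 1.42.0, limma 3.58.1 on log2(FPKM + 1) for genes with a mean of at least 1 FPKM, other scaling and filters, a replicate block, each library left out, and, added after the data were seen, a correction for exonic size and GC content (natural splines, 4 degrees of freedom per property, GC from the longest GENCODE transcript, for 16533 genes). The rule for named genes took all members, the genes past the threshold on each list (at most 4), the 4 genes closest in profile to CREB5 and CREBBP, genes that overlap a member, and NEK1. Other genes with values are named as examples. No set test was run.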

Additional observations from a re-analysis of the deposited data

How the results depend on the processing

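Of the 3 members called, CREB5 and EP300 were called in 12 of 13 alternatives and CREBBP in 9 of 13, with none changing sign. Limma on log2(FPKM + 1) called 0 members, 3 genes higher and 1 lower in the whole table, and 0 genes of any pathway list in either direction, although 1959 of its 12984 genes had an unadjusted p under 0.05 (edgeR, 2717 of 16834). Limma's values for CREB5, EP300 and CREBBP were -0.51, -0.29 and -0.23. DESeq2 called 123 genes higher, against 198 in edgeR, and 0 fallen cAMP response genes. No DESeq2 value is at hand for EGR1, the gene of that list called lower in edgeR, so this 0 may stand for a missing adjusted p. Of other coactivators 1 fell without a filter on low counts and 1 after the exonic size and GC correction. In the list of cAMP and protein kinase A, 1 gene (PKIA) rose at a mean FPKM of at least 1, with the replicate block and after the correction. When each library was left out, 2 to 4 members were called lower, 62 to 507 genes rose and 147 to 810 fell (most without GFP replicate 3). Fallen genes then numbered 0 to 3 among other coactivators, 0 to 2 among kinases and phosphatases, 0 to 1 among cAMP response genes and 0 to 1 among cAMP and protein kinase A genes, where 0 to 1 rose. CREM ran from -0.05897 to 0.0788 (without GFP replicate 1), and its sign changed in 4 of 13 alternatives, that of CREB3 and CRTC2 in 2 of 13 each. The replicate block gave 266 genes higher, 511 lower and 3 members lower. Same-numbered libraries deviated from their group means with correlations of 0.0318, -0.0102 and 0.00614, and not every library correlated best with its own number. No shared deviation by number was thus seen, which cannot tell whether same-numbered libraries were prepared together. Depth limits most the members with the fewest counts, 342 at the lowest. The causes of these changes were not tested.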
